A study of Oryza sativa with 7 samples.

Results

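B-type cyclins and B-type cyclin-dependent kinases (CDKB) are the regulators that carry plant cells from G2 into mitosis. The 5 rice genes described here were taken by identifier: the cyclin genes CYCB1-1 (also written CYCB1;1, Os01g0805600), CYCB2-1 (Os04g0563700) and CYCB2-2 (Os06g0726800), and the kinase genes CDKB1-1 (Os01g0897000) and CDKB2-1 (Os08g0512600). All 5 were found among the 35825 rows of the deposited table, and all 5 passed the filter on low values, a mean of at least 1 RPKM (reads scaled to gene model length in kilobases and to library size). RefSeq holds a gene of each of these symbols on the same chromosome and at a matching place in its gene order. No sequence of these genes is shown.

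The study measured messenger RNA in whole rice caryopses, the young grain with its maternal pericarp, at 2 days after fertilization. Field-grown plants of the cultivar Kitaake (WT) were compared with osbzip76-1 and osbzip76-2, independent mutant alleles of OsbZIP76, a basic leucine zipper factor studied here for its role in endosperm cellularization. According to the series description, the hot summer had by then brought cellularization forward in WT and mutants alike. The values came from 3 WT libraries, 2 of osbzip76-1 and 1 of osbzip76-2, so that each osbzip76-2 comparison assumes that its library varied like the others. The series description calls the WT libraries biological replicates; how many grains or plants went into each is not given in the sources used here. For the mutant libraries nothing says that they came from separate plants, so p-values measure the spread between these libraries, which may be technical. The level of OsbZIP76 itself, which would check the labels, was not analysed here.

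A B-type cyclin binds a cyclin-dependent kinase, and the complex drives entry into mitosis until the cyclin is degraded at anaphase. CDKB kinases are a class found in plants, and both families are known for transcripts that accumulate late in the cell cycle, around G2 and mitosis. For that reason their transcripts are widely used as marks of dividing cells. In the early cereal endosperm, nuclei first divide without forming walls, the syncytium is then partitioned into cells, and cell division goes on for some days, while cells of the pericarp also divide. In whole caryopses, fewer dividing cells and less transcript per dividing cell cannot be told apart.

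One library stood apart over all genes. Along the leading principal component (45.3% of the variance) WT replicate 2 lay at -61.3, and the other 5 between -2.97 and 30.5. Recovered totals ran from 19900850 to 24887952 reads per library. Of the endosperm markers listed, 3 of 6 could be named (NF-YB1, AGPL2 and AGPS2), and none was at 0 in any library. Their summed level was 69.9 to 143 RPKM in the WT libraries, 259 to 288 RPKM in the osbzip76-1 pair and 297 RPKM in the osbzip76-2 library. The maternal marker MADS29, 1 of 2 listed by identifier that could be named, was at 98.4 to 140 RPKM in the WT libraries. It was at 64.0 to 68.8 RPKM in the osbzip76-1 pair and 87.7 RPKM in the osbzip76-2 library. RBCS and CAB genes of the green pericarp, also planned as maternal markers, were not analysed here. The embryo marker OSH1 was at 3.00 to 7.56 RPKM over all libraries. The extraction protocol in the labels speaks of endosperm, whereas the tissue is labelled as caryopsis, and MADS29 transcripts were present in every library.

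CYCB1-1, the most abundant of the 3 cyclins, stood at 83.9, 33.7 and 66.3 RPKM in WT replicates 1 to 3. Its mutant values were 34.6 and 87.7 RPKM (osbzip76-1 replicates 1 and 2) and 43.0 RPKM (osbzip76-2). The highest and the lowest value of each genotype class thus lay close to those of the other, and the classes overlapped. Between 861 and 2529 reads stood behind each value, and the exact binomial 95% interval, which covers counting error only, was 80.7 to 87.2 RPKM in WT replicate 1 and 31.6 to 35.9 RPKM in WT replicate 2.

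CYCB2-1, a cyclin of the other B subclass, stood at 47.5, 26.6 and 38.3 RPKM in WT replicates 1 to 3. In osbzip76-1 it was at 23.5 and 50.7 RPKM, and in osbzip76-2 at 23.2 RPKM. Its osbzip76-2 value lay below all WT values, which was not so for any other of the 5 genes. CYCB2-2, its close relative and the least abundant of the 5, stood at 46.3, 16.0 and 35.7 RPKM in WT. It was at 16.6 and 49.0 RPKM in osbzip76-1 and at 21.3 RPKM in osbzip76-2, and it spanned the widest range of the 5 genes, 3.05-fold from lowest to highest. How the authors assigned reads shared by similar genes is not given in the sources used here, so the split between relatives such as CYCB2-1 and CYCB2-2 is less certain than their joint level.

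The kinase genes also varied widely between libraries. CDKB2-1, a kinase whose transcripts are known in plants to peak near mitosis, was the most abundant, at 115.6, 46.1 and 92.3 RPKM in WT replicates 1 to 3. Its mutant values were 52.8 and 106 RPKM (osbzip76-1 replicates 1 and 2) and 56.2 RPKM (osbzip76-2). CDKB1-1, of the CDKB subclass that in Arabidopsis is expressed from S phase to mitosis, stood at 63.0, 24.5 and 45.5 RPKM in the WT libraries. Its mutant values were 32.3 and 54.6 RPKM (osbzip76-1) and 41.4 RPKM (osbzip76-2). WT replicate 2 was the lowest library for both kinases, WT replicate 1 was the highest, and the classes overlapped for both.

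**Figure D1:**
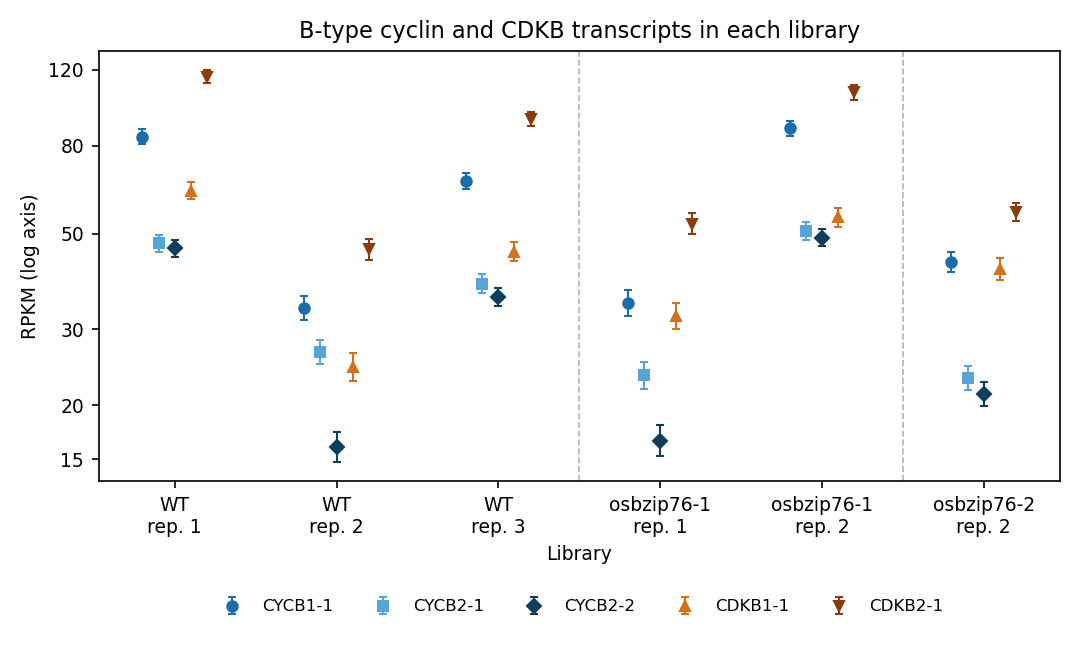
RPKM (log axis) of the 3 B-type cyclin and 2 CDKB genes in each of the 6 libraries, with exact binomial 95% intervals for counting error. WT replicates 1 and 3 and osbzip76-1 replicate 2 are the 3 highest libraries for every gene. With both alleles taken as 1 class, mutants and WT overlap for every gene. The osbzip76-2 value of CYCB2-1 lies below all WT values.

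The 5 genes shared the set of their 3 highest libraries. WT replicate 1, WT replicate 3 and osbzip76-1 replicate 2 were the 3 highest libraries for CYCB1-1, and the same 3 were the highest for each of the other 4 genes. Among all 21454 genes tested this held for 1675, or 7.81%. The order within the set was not shared: osbzip76-1 replicate 2 was the highest for the 3 cyclins and WT replicate 1 for the 2 kinases. The lowest library was WT replicate 2 for 4 genes and the osbzip76-2 library for CYCB2-1. Summed over the 5 genes, the WT level ranged from 147 RPKM (replicate 2) to 356 RPKM (replicate 1). The mutant level ranged from 160 RPKM (osbzip76-1 replicate 1) to 348 RPKM (osbzip76-1 replicate 2), with 185 RPKM in the osbzip76-2 library. The highest and the lowest of the 6 sums were thus both WT libraries.

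The difference between the osbzip76-1 libraries was large for these genes and small for most others. Osbzip76-1 replicate 2 had 2.95 times as much CYCB2-2 as replicate 1 (exact 95% interval 2.69 to 3.25, from 1836 and 586 reads), and 2.54 times as much CYCB1-1 (2.35 to 2.75). The ratio was 2.16 for CYCB2-1 (1.98 to 2.35), 2.01 for CDKB2-1 (1.88 to 2.15) and 1.69 for CDKB1-1 (1.55 to 1.85). These intervals compare the 2 libraries by counting error and say nothing of the genotype. On the log2(RPKM + 1) scale the differences were 0.74 to 1.51, against a median absolute difference of 0.15 over all genes tested. A difference at least as large as that of CYCB2-2 was seen in 0.308% of the genes tested, and one at least as large as that of CDKB1-1 in 2.74%. Along the leading principal component the 2 libraries were neighbours, at 27.3 and 30.5. Their summed endosperm markers (288 and 259 RPKM in replicates 1 and 2) and their MADS29 levels (68.8 and 64.0 RPKM) lay near each other. Most of that endosperm sum was AGPL2, at 193 and 167 RPKM. NF-YB1, which is part of the sum, differed more, at 11.1 and 6.42 RPKM. OSH1 stood at 7.56 and 4.11 RPKM, and AGPL2, NF-YB1 and OSH1 were all higher in replicate 1. AGPS2, the other gene of the sum, was slightly lower in replicate 1, at 84.4 and 85.9 RPKM. In the same libraries the summed level of the 5 genes was 160 and 348 RPKM. The part of tissue makeup in the difference was not tested.

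In WT the contrast lay between replicate 2 and the others. WT replicate 1 had 2.49 times the CYCB1-1 level of WT replicate 2 (exact 95% interval 2.31 to 2.68) and 2.57 times its CDKB1-1 level (2.35 to 2.80). The ratio was smallest for CYCB2-1, at 1.79 (1.65 to 1.93), and largest for CYCB2-2, at 2.88 (2.64 to 3.16). WT replicates 1 and 3 were nearer, with ratios of 1.24 for CYCB2-1 to 1.39 for CDKB1-1. The ratio of WT replicate 3 to replicate 2 ran from 1.44 (CYCB2-1) to 2.23 (CYCB2-2). Between those libraries 27.0% and 4.82% of genes differed at least as much as these 2 genes. For CDKB1-1 the share was 9.52% there, and 6.71% between WT replicates 1 and 3. Since WT replicate 2 departed from the others over the whole transcriptome, with a median absolute log2 difference of 0.28 from WT replicate 1, its low mitotic transcripts were less unusual: 1.46% (CYCB2-2) to 9.09% (CYCB2-1) of genes differed as much between those 2 libraries. Its summed endosperm markers were also the lowest of all libraries, at 69.9 RPKM, and its MADS29 level was the highest, at 140 RPKM. Their part in the low mitotic transcripts of this library was not tested.

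The spread between libraries of a genotype class was accordingly wide. The residual SD on the log2(RPKM + 1) scale, with both alleles taken as 1 class, was 0.78 for CYCB2-2, 0.68 for CYCB1-1, 0.62 for CDKB2-1, 0.54 for CDKB1-1 and 0.53 for CYCB2-1. The median over all genes tested was 0.20, and 94.4% (CYCB2-1) to 98.1% (CYCB2-2) of them had a smaller value. Among the 2660 genes with a mean between 30.8 and 78.2 RPKM, the range of the 5 genes, the median was 0.17, and 96.5% to 98.9% had a smaller value than the 5 genes.

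**Figure D2:**
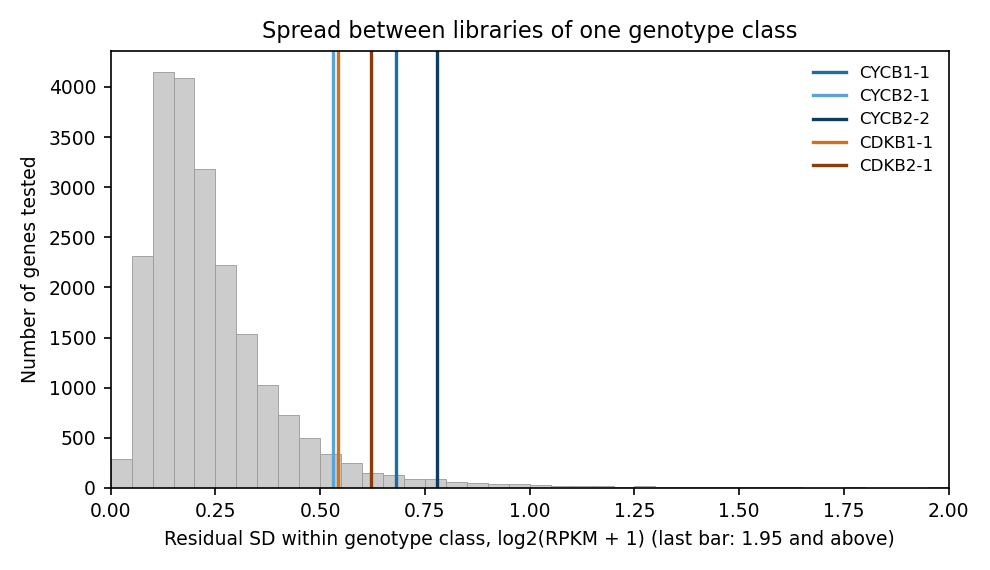
Number of genes tested by residual SD within the genotype class, on the log2(RPKM + 1) scale (grey bars), with the B-type cyclin and CDKB genes as vertical lines. All 5 lines, from 0.53 to 0.78, lie in the upper tail, above the median of 0.20.

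Both alleles were pooled as 1 class and compared with WT, to see whether the mitotic regulators differ in grains without a normal OsbZIP76 gene. None of the 5 genes passed the threshold (adjusted p of 0.05, limma with Benjamini-Hochberg adjustment over all genes tested) in a comparison in which 0.387% of all genes did. None had an unadjusted limma p under 0.05 either, where 13.7% of all genes had one. The classes overlapped for all 5, while 21.6% of the genes tested had classes that did not. The median log2 fold change of the 5 genes was -0.20, beside a median of -0.017 over all genes tested. The value was below 0 for 4 of the 5 genes, and quantile normalization also put the other, CDKB1-1, below 0 (-0.0072). Since the 5 genes were high in the same libraries, their signs are not separate observations.

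CYCB1-1 averaged 55.1 ± 28.6 RPKM over the mutant libraries, against 61.3 ± 25.5 RPKM for WT (SD, n = 3 each). Its log2 fold change in limma was -0.17 (95% interval -1.13 to 0.79, adjusted p = 0.884). CYCB2-1 averaged 32.5 ± 15.8 against 37.5 ± 10.5 RPKM (limma: log2 fold change -0.26, interval -1.02 to 0.50, adjusted p = 0.762), and CYCB2-2 averaged 28.96 ± 17.5 against 32.7 ± 15.3 RPKM (limma: log2 fold change -0.20, interval -1.29 to 0.90, adjusted p = 0.882). Of the kinases, CDKB1-1 averaged 42.8 ± 11.2 against 44.3 ± 19.2 RPKM (limma log2 fold change 0.016, interval -0.76 to 0.79, adjusted p = 0.988). CDKB2-1 averaged 71.8 ± 29.9 against 84.7 ± 35.4 RPKM (limma log2 fold change -0.21, interval -1.09 to 0.67, adjusted p = 0.840). All 5 differences were smaller than the spread between libraries. The widest interval, that of CYCB2-2, reached from -1.29 to 0.90 on the log2 scale. For each gene, differences within its own interval are not excluded.

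The sign of these differences depended on single libraries for all of the 5 genes but CYCB2-1. Without WT replicate 2 all 5 log2 fold changes were below 0, from -0.35 (CDKB1-1) to -0.63 (CYCB2-2), and none passed (limma adjusted p from 0.391 to 0.526), where 0.502% of all genes did. None had an unadjusted limma p under 0.05 there, and 15.1% of all genes had one. Without WT replicate 1 the value was 0.10 for CYCB1-1, 0.11 for CYCB2-2, 0.31 for CDKB1-1 and 0.060 for CDKB2-1, and -0.074 for CYCB2-1. Leaving out osbzip76-1 replicate 1 gave 0.10 for CYCB1-1, 0.11 for CYCB2-2 and 0.20 for CDKB1-1, but -0.083 for CYCB2-1 and -0.030 for CDKB2-1. Without osbzip76-1 replicate 2 the 5 values lay between -0.17 (CDKB1-1) and -0.64 (CYCB2-2), and none passed, where 0.159% of all genes did. There CYCB2-1, at -0.62, had an unadjusted limma p of 0.0369 (adjusted p = 0.585), where 7.99% of all genes had an unadjusted p under 0.05.

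**Figure D3:**
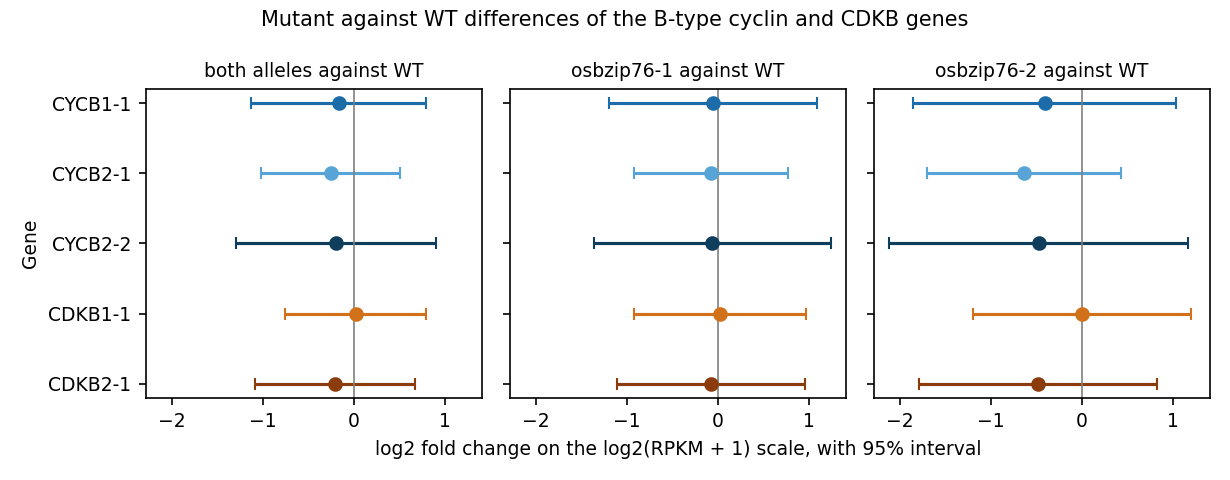
Log2 fold change with its 95% interval from limma, on the log2(RPKM + 1) scale, of the B-type cyclin and CDKB genes for both alleles, osbzip76-1 and osbzip76-2 against WT. Every interval includes 0.

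Each allele was also set against the same 3 WT libraries, so these comparisons share their controls. For osbzip76-1 the log2 fold changes lay between -0.076 (CDKB2-1) and 0.022 (CDKB1-1), with standard errors from 0.35 to 0.55. None of the 5 passed (limma adjusted p from 0.941 to 0.983), where 0.382% of all genes did, and none had an unadjusted p under 0.05, where 13.9% did. CYCB1-1 averaged 61.2 ± 37.6 RPKM (SD, n = 2) in osbzip76-1 beside a WT mean of 61.3 ± 25.5 RPKM (n = 3), and CYCB2-2 averaged 32.8 ± 22.9 beside 32.7 ± 15.3 RPKM. The nearly equal means of this allele came from 1 low and 1 high library and not from similar levels. Without WT replicate 2 the 5 values were -0.29 (CYCB2-1) to -0.49 (CYCB2-2), and none passed (limma adjusted p from 0.421 to 0.636), where 2.44% of all genes did. None had an unadjusted p under 0.05 there either, where 20.2% did.

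For the osbzip76-2 library the 3 cyclins and CDKB2-1 had log2 fold changes of -0.41 (CYCB1-1), -0.63 (CYCB2-1), -0.47 (CYCB2-2) and -0.48 (CDKB2-1), and CDKB1-1 had 0.0037. Standard errors were 0.45 to 0.69, and none of the 5 passed (limma adjusted p from 0.974 to 1.00), where 0.690% of all genes did. None had an unadjusted p under 0.05, where 7.06% did. Without WT replicate 2 these values were -0.78, -0.85, -0.90 and -0.87, and -0.36 for CDKB1-1, and none passed, where 2.46% of all genes did. CDKB2-1 then had an unadjusted limma p of 0.0451 (adjusted p = 0.284), where 16.6% of all genes had an unadjusted p under 0.05. Without WT replicate 1 the values moved the other way, to -0.13 (CYCB1-1), -0.45 (CYCB2-1), -0.17 (CYCB2-2), -0.21 (CDKB2-1) and 0.30 (CDKB1-1). Between the alleles the differences of osbzip76-2 from osbzip76-1 ranged from -0.56 (CYCB2-1) to -0.019 (CDKB1-1), and none passed (limma adjusted p = 0.998 for each), where 0.214% of all genes did. At an unadjusted p under 0.05 there was likewise none of the 5, beside 4.92% of all genes.

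The order of the levels was nearly constant. Per length of gene model, CDKB2-1 was the highest of the 5 in 6 of 6 libraries, CYCB1-1 the second in 6 of 6, and CYCB2-2 the lowest in 6 of 6. CDKB1-1 was the third and CYCB2-1 the fourth in 5 libraries, and in WT replicate 2 they changed places (24.5 and 26.6 RPKM). Over the 6 libraries the log2 ratio of CDKB2-1 to CYCB1-1 was 0.44 ± 0.11 (SD), that of CYCB1-1 to CDKB1-1 was 0.38 ± 0.25, and that of CYCB2-1 to CYCB2-2 was 0.26 ± 0.29. The log2 ratio of CDKB1-1 to CYCB2-1 was 0.32 ± 0.33, and that pair, like CYCB2-1 and CYCB2-2, differed by less than the SD of its ratio. Since the pairs were formed by ranking the same levels, a test of these ratios would be circular, and none is given.

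Ratios between the genes moved by different amounts. The ratio of CYCB1-1 to CYCB2-2 stayed between 1.79 and 2.10, a span of 1.17-fold, while the genes spanned 2.60-fold and 3.05-fold. The ratio of CYCB1-1 to CDKB2-1 stayed between 0.656 and 0.826. Relative to CDKB2-1, CDKB1-1 was highest in the osbzip76-2 library, at 0.737, and lay between 0.492 and 0.612 in the other 5. The widest span among the 10 pairs was that of CYCB2-1 to CDKB1-1, 1.94-fold, from 0.559 in the osbzip76-2 library to 1.08 in WT replicate 2, beside spans of 2.19-fold and 2.57-fold for those genes themselves.

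**Figure D4:**
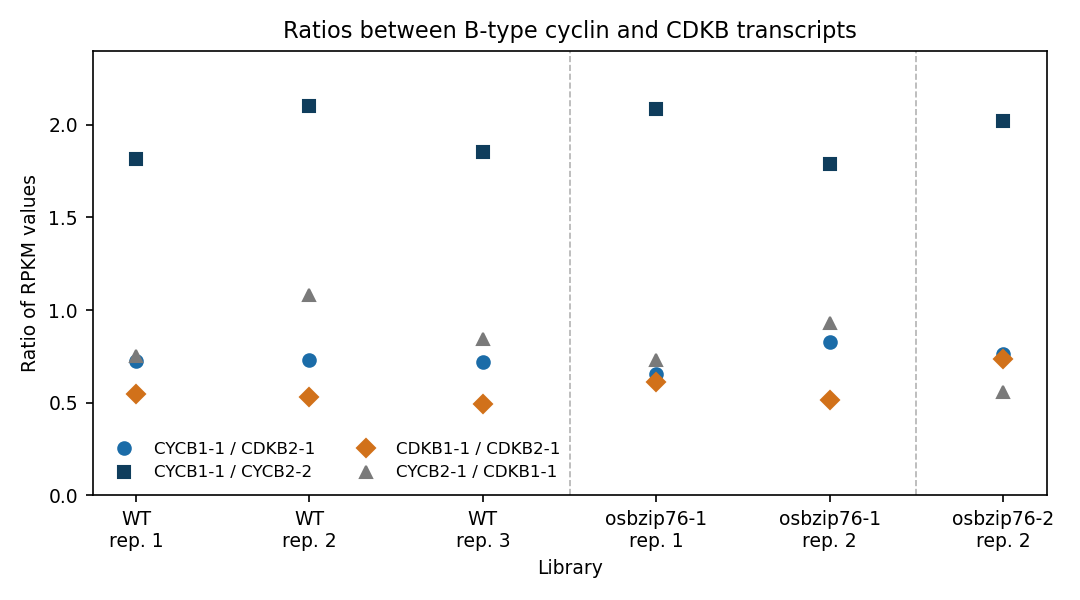
Ratio of RPKM values for 4 of the 10 pairs of B-type cyclin and CDKB genes in each library. The CYCB1-1 to CYCB2-2 ratio stays between 1.79 and 2.10, and CDKB1-1 relative to CDKB2-1 is highest, at 0.737, in the osbzip76-2 library.

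Profiles were compared by the root mean square difference of log2(RPKM + 1) over the 6 libraries, each gene centred on its own mean. This is a description over 6 libraries that share depth and tissue makeup. Genes with a name were those given a symbol by the deposited table and the checked genes of the lists used here. Cell cycle genes were thus favoured among them. Among 181 other genes with a name, the closest to CYCB1-1 were CYCB2-2 (0.082), CDKB2-1 (0.097) and CYCB1-5 (0.16), a further B-type cyclin. The closest to CYCB2-2 were CYCB1-1, CYCB1-5 (0.13) and CDKB2-1 (0.16), and the closest to CYCB2-1 were CDKB2-1 (0.17), CYCB1-1 (0.19) and CYCB2-2 (0.25). For CDKB2-1 they were CYCB1-1, CYCB2-2 and CYCB2-1. CDKB1-1 was nearest to CKS1 (0.15), which encodes a small subunit that binds cyclin-dependent kinases, then to CDKB2-1 (0.19) and KRP2 (0.21), an inhibitor of the kinases. With a pseudocount of 0.1 CYCB1-1 (0.23) took the place of KRP2, a gene of low level, and no other of these neighbours changed. Ranked among all 21453 other genes tested, named or not, CYCB2-2 was number 3 and CDKB2-1 number 5 in closeness to CYCB1-1, and CYCB2-1 and CDKB1-1 were numbers 41 and 62. CDKB1-1 stood further from the others: in closeness to it, CDKB2-1 was number 61, CYCB1-1 number 141, CYCB2-2 number 634 and CYCB2-1 number 665. In closeness to CYCB2-1, CDKB1-1 was number 218. CYCB1-5 was number 18 in closeness to CYCB1-1, and CKS1 and KRP2 were numbers 15 and 90 in closeness to CDKB1-1.

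Other cell cycle genes were taken from lists of known regulators, of which 22 genes could be named, and all 22 were tested. None of the 22 passed the threshold for both alleles against WT, where 0.387% of all genes did. Of the 22, 9 had a positive and 13 a negative log2 fold change, and their median was -0.034, beside -0.017 over all genes tested. At an unadjusted limma p under 0.05 there was 1 of 22, a smaller share than the 13.7% of all genes. It was PCNA, the sliding clamp of DNA replication, which averaged 73.98 ± 3.99 RPKM over the mutant libraries against a WT mean of 60.5 ± 8.52 RPKM (SD, n = 3 each). Its limma log2 fold change was 0.29 with a standard error of 0.13, and it did not pass (adjusted p = 0.364). None of the 22 passed for osbzip76-1 (0.382% of all genes) or for osbzip76-2 (0.690%).

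The same 3 libraries were the highest for 3 of the 22 genes (13.6%, beside 7.81% of all genes tested): CYCB1-5, CKS1 and KRP2. CYCB1-5 (Os05g0493500) stood at 37.6, 12.1 and 34.2 RPKM in WT replicates 1 to 3, and its mutant values were 16.2 and 44.4 RPKM (osbzip76-1) and 19.2 RPKM (osbzip76-2). It was low in the libraries in which the 5 genes were low, and spanned 3.68-fold. CKS1 (Os03g0146300), the most abundant of the 22, stood at 172, 96.2 and 153 RPKM in the WT libraries, and its mutant values were 111 and 170 RPKM (osbzip76-1) and 134 RPKM (osbzip76-2). KRP2 was close to the filter on low values, at 0.355 RPKM in WT replicate 2 and at most 2.048 RPKM, in WT replicate 1. KIN13A, a kinesin that the deposited table itself names and that is not counted among the 22, also had these 3 libraries highest, but narrowly: it was at 19.9 RPKM in WT replicate 1 and 19.7 RPKM in osbzip76-1 replicate 1. Its 2.97-fold span came from WT replicate 2, at 7.41 RPKM. CycF1-4 and CycF2-1, named in the same way, had no reads in any library.

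The partner kinase and the S-phase genes did not span such a range. CDKA-1 (Os03g0118400), the kinase that acts throughout the cell cycle, stood at 32.5, 28.2 and 30.4 RPKM in the WT libraries. Its mutant values were 29.6 and 31.9 RPKM (osbzip76-1) and 33.05 RPKM (osbzip76-2), and its span was 1.17-fold. The 7 genes of DNA replication, PCNA and MCM2 to MCM7 (subunits of the replicative helicase), spanned 1.40-fold to 1.64-fold. PCNA was at 78.5 and 72.6 RPKM in osbzip76-1 replicates 1 and 2, between which CYCB2-2 differed 2.95-fold, and MCM5 was at 22.4 and 17.2 RPKM. WEE1, a kinase that inhibits cyclin-dependent kinases, spanned 1.37-fold, and CDKA-2, a further A-type kinase gene, 1.502-fold. The retinoblastoma genes RBR1 and RBR2, which restrain entry into S phase, spanned 1.49-fold and 1.27-fold.

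Of the remaining regulators, the inhibitor gene KRP1 stood at 51.8 to 78.9 RPKM and KRP4 at 13.3 to 15.4 RPKM over the 6 libraries, and KRP3 spanned 2.02-fold. The A-type cyclins CYCA2-1, CYCA3-1 and CYCA3-2, which act in S phase and G2, spanned 1.73-fold, 2.38-fold and 1.52-fold, and none of them had the same 3 highest libraries as the B-type cyclins. CYCD4-1, a D-type cyclin of the kind that acts in G1, was highest in WT replicate 2, at 12.04 RPKM, and lay between 7.04 and 8.06 RPKM in the other 5 libraries. In all, 19 of the 22 genes spanned a narrower range than every one of the 5 genes, and the exceptions were CYCB1-5, KRP2 and CYCA3-1. The median span was 1.51-fold for the 22, 2.57-fold for the 5 and 1.61-fold over all genes tested.

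**Figure D5:**
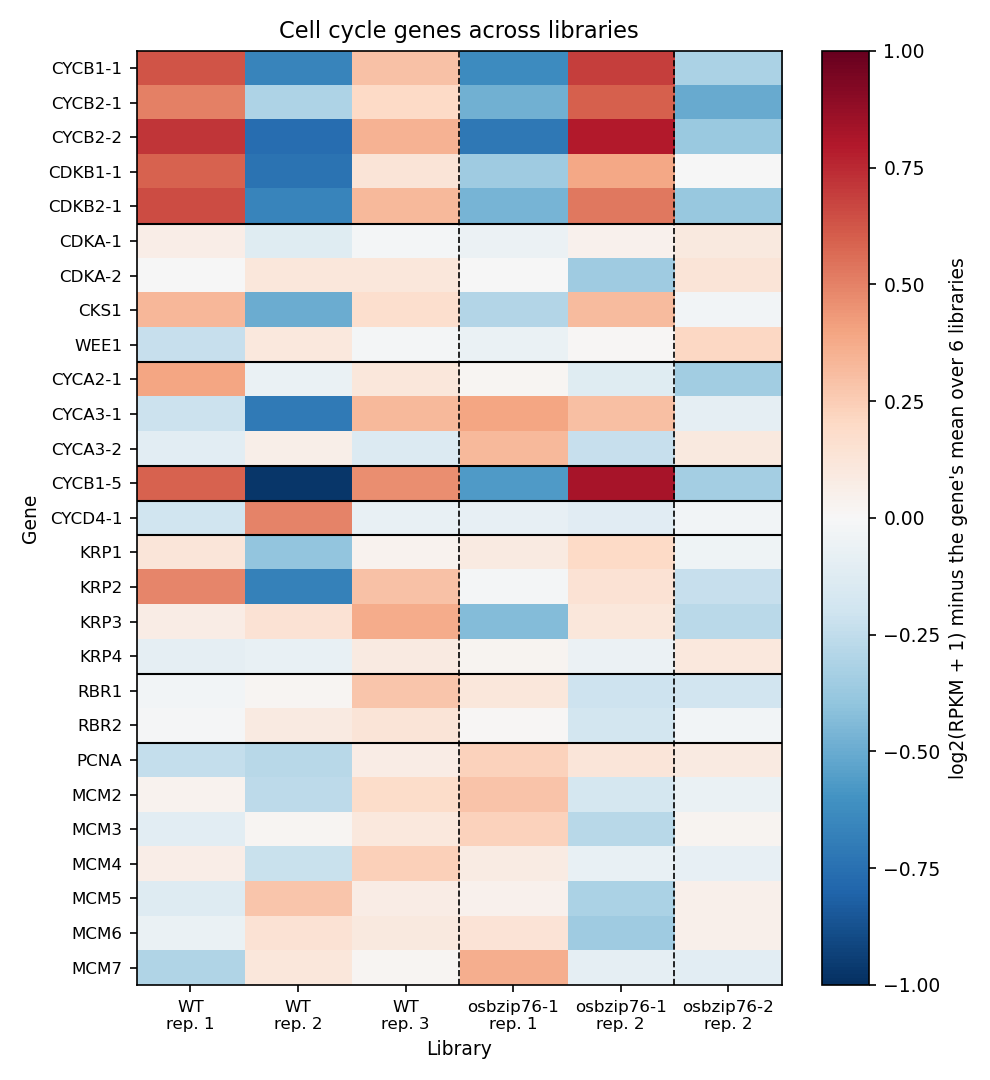
Log2(RPKM + 1) of the B-type cyclin and CDKB genes (top block) and 22 other cell cycle genes in each library, minus the gene's mean over the 6 libraries, with colours limited to -1 and 1. CYCB1-5 and CKS1 follow the top block, while CDKA-1 and the 7 replication genes from PCNA to MCM7 vary less.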

How the data were processed

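The authors deposited 1 table of RPKM values with a column per library and 2 columns of means, which were not used. Per the submitters' processing notes the reference was IRGSP-1.0. Which aligner and counter were used, and how strand and shared reads were handled, is not given in the sources used here. The labels list 7 libraries and columns for 6 were analysed, matched by name; osbzip76-2 replicate 1 was not analysed here. Library totals and gene lengths were solved for from the values, which gave the read counts and the exact binomial intervals. Values above 0 (168975) were then whole multiples of 1 read to within 0.02 reads in 100% of cases. Since the lengths were solved to give whole reads, that share is no independent check.

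Genes with a mean of at least 1 RPKM (21454) entered limma (version 3.58.1, R 4.3.3; linear fit and two-sided moderated test with a mean trend) on log2(RPKM + 1), which slightly understates changes. Both alleles against WT used a 2-group fit, and the other comparisons a 3-group fit with 1 shared spread. P-values were adjusted over all genes tested. The procedures were tested on simulated data. Alternatives were a pseudocount of 0.1, no filter, upper-quartile scaling, quantile normalization, voom on recovered reads, array weights, a replicate block and leaving out each library.

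The genes and lists were chosen with earlier results of these data known. Of 31 pairs of cell cycle symbol and identifier written from memory, 22 were kept, because RefSeq (ASM3414082v1) held that symbol on the same chromosome and within 3% of its genes in order; the other 9 were not used. The genes named are the 5, those kept from the lists and, for each of the 5, the 3 named genes of closest profile.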

Additional observations from a re-analysis of the deposited data

How the results depend on the processing

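None of the 5 genes passed the threshold under any alternative in any comparison; the lowest limma adjusted p was 0.311 for both alleles, 0.380 for osbzip76-1, 0.263 for osbzip76-2 and 0.550 between alleles. With array weights the log2 fold changes for osbzip76-2 ran from -0.40 (CDKB1-1) to -0.91 (CYCB2-2). Between alleles without osbzip76-1 replicate 1 they ran from -0.39 (CDKB1-1) to -1.17 (CYCB2-2). The sign changed in 9 of 65 values for both alleles and 18 of 65 for osbzip76-1. It changed in 5 of 60 for osbzip76-2, all of them CDKB1-1, and in 5 of 60 between alleles. CYCB2-1 stayed below 0 for both alleles. The cause of the sign changes was not tested. Without the only osbzip76-2 library its comparisons give no value. The replicate numbers do not pair the libraries as far as the labels say. With a replicate block the count of genes called was 32 for both alleles and 78 for osbzip76-2, and log2 fold changes were 0.050 (CYCB1-1), 0.063 (CYCB2-2) and 0.035 (CDKB2-1) for osbzip76-1 and 0.13 (CDKB1-1) between alleles. CDKB1-1 turned negative with quantile normalization (-0.0072, -0.0018 and -0.018 for both alleles, osbzip76-1 and osbzip76-2), with array weights (-0.37, -0.38 and -0.40) and, for osbzip76-2, with upper-quartile scaling (-0.011) and voom (-0.0023).

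Leaving out 1 library gave ranges for both alleles of -0.56 to 0.10 (CYCB1-1), -0.62 to -0.074 (CYCB2-1), -0.64 to 0.11 (CYCB2-2), -0.35 to 0.31 (CDKB1-1) and -0.59 to 0.060 (CDKB2-1). For osbzip76-1 they were -0.71 to 0.61, -0.61 to 0.47, -0.81 to 0.69, -0.35 to 0.39 and -0.57 to 0.42 in the same order. For osbzip76-2 they were -0.78 to -0.13, -0.85 to -0.45, -0.90 to -0.17, -0.36 to 0.30 and -0.87 to -0.21. Between alleles the ranges were -1.01 to 0.31 (CYCB1-1), -1.10 to -0.019 (CYCB2-1), -1.17 to 0.34 (CYCB2-2), -0.39 to 0.35 (CDKB1-1) and -0.91 to 0.091 (CDKB2-1).

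Over all genes, 83, 82, 148 and 46 were called for both alleles, osbzip76-1, osbzip76-2 and between alleles. Leaving out 1 library gave 34 to 108, 17 to 525, 36 to 529 and 0 to 264, the highest of each without WT replicate 2. The 0 between alleles, without either osbzip76-1 library, stood beside 621 and 782 genes at an unadjusted limma p under 0.05. Counts with no filter were 52, 38, 282 and 179, with array weights 1246, 1059, 658 and 256, and with voom 42, 49 and 22 for both alleles, osbzip76-1 and between alleles. A pseudocount of 0.1 gave 29 for osbzip76-2 and 2 between alleles, and quantile normalization 26 between alleles.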
